A study of Homo sapiens with 2 samples.

Results

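The S100 genes code for a family of small, mostly calcium-binding proteins. In these data 10 of them (*S100A4*, *S100A6*, *S100A8*, *S100A9*, *S100A10*, *S100A11*, *S100A12*, *S100A13*, *S100A16* and *S100B*) were followed across the lineages of blood-generating heart-forming organoids (BG-HFOs), out of 21 S100 genes and 36601 genes listed in the count tables. The members were selected by symbol, and all 10 had UMIs (unique molecular identifiers, each standing for 1 captured transcript) in both libraries. Cells were assigned to lineages by raw UMIs of 1 gene per lineage. At least 50 UMIs of *HBZ* (embryonic globin), 20 of *PF4* (platelet granules), 2 of *PTPRC* (the leukocyte surface protein CD45), 2 of *CDH5* (endothelial cadherin), 5 of *MYH6* (cardiac myosin), 10 of *COL3A1* (fibrillar collagen) or 10 of *AFP* (alpha-fetoprotein) were required, and a cell that passed several gates was left out. The gate genes chose the cells and are therefore not among the results. Because the 10 genes were picked with earlier results of these data known, the tests below say how large a difference was against the spread between organoids and are not independent evidence for the choice.

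BG-HFOs are grown from aggregates of human pluripotent stem cells embedded in Matrigel, with WNT signalling first switched on and then off and with haemato-endothelial growth factors and cytokines added. Both organoids, 32.7 and 33.10, were from 1 human embryonic stem cell line, hES3 NKX2.5-eGFP, which carries a green fluorescent reporter at the cardiac gene *NKX2.5*. They were dissociated individually on day 14 and gave 1 droplet library (10x Genomics, 3′ ends) each. There was 1 condition and no treatment group, so lineages and not treatments were compared, with the organoid as the replicate (n = 2). A single line is 1 genetic background, and a p-value here covers only the spread between these 2 organoids.

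Organoid 32.7 held 191152562 UMIs in 16866 barcodes and organoid 33.10 held 233818881 in 19948, and 100 barcodes occurred in both libraries. After the cell filter, the HBZ gate held 776 and 1790 cells (in organoid 32.7 and 33.10, the order used throughout), the PF4 gate 911 and 2577, the PTPRC gate 881 and 433, the CDH5 gate 2237 and 2138, the MYH6 gate 1363 and 1428, and the COL3A1 gate 2659 and 2338. The AFP gate held 176 and 10 cells, so it is described but entered no test. By summed level in CPM (counts per 1000000 UMIs of the gate), each list of 5 lineage markers was highest in its own gate in both organoids. Detection of all 5 markers does not set gates apart, since most lists were complete in most gates. Leukocyte genes summed to 2375 and 2253 CPM in the PTPRC gate and endothelial genes to 3606 and 3269 CPM in the CDH5 gate. The own lists summed to 2064 and 2080 CPM in the HBZ gate and 15307 and 12650 CPM in the PF4 gate. They summed to 11683 and 10656 CPM in the MYH6 gate, 2503 and 2088 CPM in the COL3A1 gate and 18125.6 and 28490.5 CPM in the AFP gate. The leukocyte list was also at 1006 and 1030 CPM in the PF4 gate and between 28.3 and 73.5 CPM in the HBZ, CDH5, MYH6 and COL3A1 gates. In the PTPRC gate the megakaryocyte list summed to 109 and 247 CPM, the endothelial list to 283 and 271 CPM and the cardiomyocyte list to 137 and 95.6 CPM. *TYROBP* of the leukocyte list was found in 54.7% and 61.1% of PF4-gated cells with under 20 *S100A8* UMIs. In such cells of the HBZ, CDH5, MYH6 and COL3A1 gates it was found in 5.29 to 12.7%. How much of these levels was admixed or free RNA and how much the cells' own was not tested.

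S100 proteins act mostly as dimers, and most of them carry calcium-binding loops called EF-hands and bind target proteins when calcium rises. The calgranulins S100A8, S100A9 and S100A12 fill the cytosol of neutrophils and monocytes. S100A8 and S100A9 pair as calprotectin, which withholds zinc and manganese from microbes, and released calgranulins signal through TLR4 and the receptor AGER. Others are widely used: S100A10 and S100A11 bind annexins at membranes, S100A4 and S100A6 are linked to motility and proliferation, S100A13 takes part in the release of FGF1, and S100B is best known from glia. A cluster of these genes lies on chromosome 1, which is where 9 of the 10 members are.

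On GRCh38 with GENCODE annotation, the 9 members of chromosome 1 lay between positions 151982915 and 153631360. *S100A9* (ENSG00000163220) lay at chr1:153357854-153361023 on the plus strand, *S100A12* (ENSG00000163221) at chr1:153373711-153375621 on the minus strand and *S100A8* (ENSG00000143546) at chr1:153390032-153391073 on the minus strand, which places the 3 calgranulins within 33.22 kb. *S100B* (ENSG00000160307) lay apart, at chr21:46598604-46605208 on the minus strand. *S100A4* overlaps *S100A3* on the same strand, and *S100A13* overlaps *S100A1* on the other strand. Counts of such overlapping genes are uncertain. The paper names default settings for the counting and does not state how strand or overlap was treated. *S100A11* has near-identical processed pseudogenes, so its counts are likewise uncertain.

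Promoters are shown for the 3 calgranulins because these neighbours were high in the same gate. The 250 bases before the start of each gene are given 5′ to 3′ from RefSeq (GRCh38.p14), with capitals marking letters that match a searched motif.
S100A9 (chr1:153357604-153357853, plus strand): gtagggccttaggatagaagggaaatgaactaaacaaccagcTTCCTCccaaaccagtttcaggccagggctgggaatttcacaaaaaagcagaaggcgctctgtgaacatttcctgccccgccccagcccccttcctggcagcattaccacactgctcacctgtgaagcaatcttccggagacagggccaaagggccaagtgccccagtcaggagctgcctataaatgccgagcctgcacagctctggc
S100A12 (chr1:153375622-153375871, minus strand): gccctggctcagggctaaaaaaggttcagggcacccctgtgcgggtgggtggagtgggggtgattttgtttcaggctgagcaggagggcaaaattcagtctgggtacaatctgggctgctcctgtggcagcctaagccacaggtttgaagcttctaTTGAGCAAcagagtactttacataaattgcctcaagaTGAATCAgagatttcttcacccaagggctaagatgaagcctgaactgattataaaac
S100A8 (chr1:153391074-153391323, minus strand): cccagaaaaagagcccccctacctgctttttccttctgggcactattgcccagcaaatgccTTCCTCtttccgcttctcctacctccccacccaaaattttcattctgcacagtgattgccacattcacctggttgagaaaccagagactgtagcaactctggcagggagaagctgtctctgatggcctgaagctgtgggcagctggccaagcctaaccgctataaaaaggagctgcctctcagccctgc

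Motifs were searched on both strands of the 300 bases from 250 before to 50 after the start, using TTGCNNAA for the C/EBP type and GAGGAA for the PU.1 type of myeloid factors. TGANTCA stood for the AP-1 type, and the erythroid factor GATA1 was searched with the letters AGATAA. No 2 of the printed matches overlap. *S100A8* and *S100A9* each held 1 PU.1-type match, and *S100A12* held 1 C/EBP-type and 1 AP-1-type match. Of 34943 promoters in the table, 27.9% held a PU.1-type match, 10.5% a C/EBP-type match and 7.72% an AP-1-type match. Among the 9 members with a promoter in the table, *S100A11* was the only other one with a match, of the C/EBP type. These matches are letters in a window and describe no binding.

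The calgranulin genes were high in the PTPRC gate and low in each of the other gates. *S100A9* was at 6865 and 4279 CPM in the PTPRC gate, 86.4 and 11.3 CPM in the COL3A1 gate, 55.6 and 8.26 CPM in the PF4 gate, 27.9 and 10.1 CPM in the MYH6 gate, 26.3 and 4.33 CPM in the HBZ gate and 13.6 and 7.15 CPM in the CDH5 gate. *S100A8* was at 4721 and 2424 CPM in the PTPRC gate and between 2.47 and 94.2 CPM in the other 5. Both organoids of the PTPRC gate thus lay above every other gate, whereas the gates below it overlapped. For *S100A8* and *S100A9*, only 1 step below it had both organoids of the higher gate above both of the lower. This was the MYH6 over the HBZ gate for *S100A8*, with gates ordered by the mean. How many of all genes keep an order of gates in both organoids was not counted, here or below. *S100A12* was at 217 and 55.0 CPM in the PTPRC gate (3599 and 463 UMIs) and at no more than 4.34 CPM in the other 5 gates, with 2 and 1 UMIs in the whole PF4 gate.

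*S100A8* and *S100A9* were higher in the PTPRC than in the CDH5 gate, by 9.31 (SE 1.67, adjusted p = 0.000675) and 9.28 (SE 1.46, adjusted p = 0.000256) on the log2 scale (edgeR quasi-likelihood test over the summed counts). Against the PF4 gate the differences were 7.16 (SE 1.53, adjusted p = 0.00256) and 7.39 (SE 1.35, adjusted p = 0.000914). With 1 organoid alone the latter ran from 6.59 to 9.47 for *S100A8* and from 6.85 to 8.93 for *S100A9*, the higher values without organoid 32.7. *S100A12*, with 1 to 7 UMIs per sum in the CDH5 and PF4 gates, entered the fit through gates where it was higher, so its calls there are counted below but lend no support and no fold is given. Among all genes tested, 26.4% were called higher in the PTPRC than in the CDH5 gate and 26.7% lower, and 24.9% were called higher in the PTPRC than in the PF4 gate and 23.6% lower. Of the 10 members, 7 were higher and 3 lower in the PTPRC than in the CDH5 gate, and 8 were higher and 1 lower in the PTPRC than in the PF4 gate. The median member, with *S100A12* included, differed by 4.03 and 2.31 on the log2 scale in these comparisons. With *S100A12* left out, the middle member was *S100A6* at 2.37 and *S100A4* at 1.55. Over all genes tested the medians were -0.03 and -0.05.

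**Figure D1:**
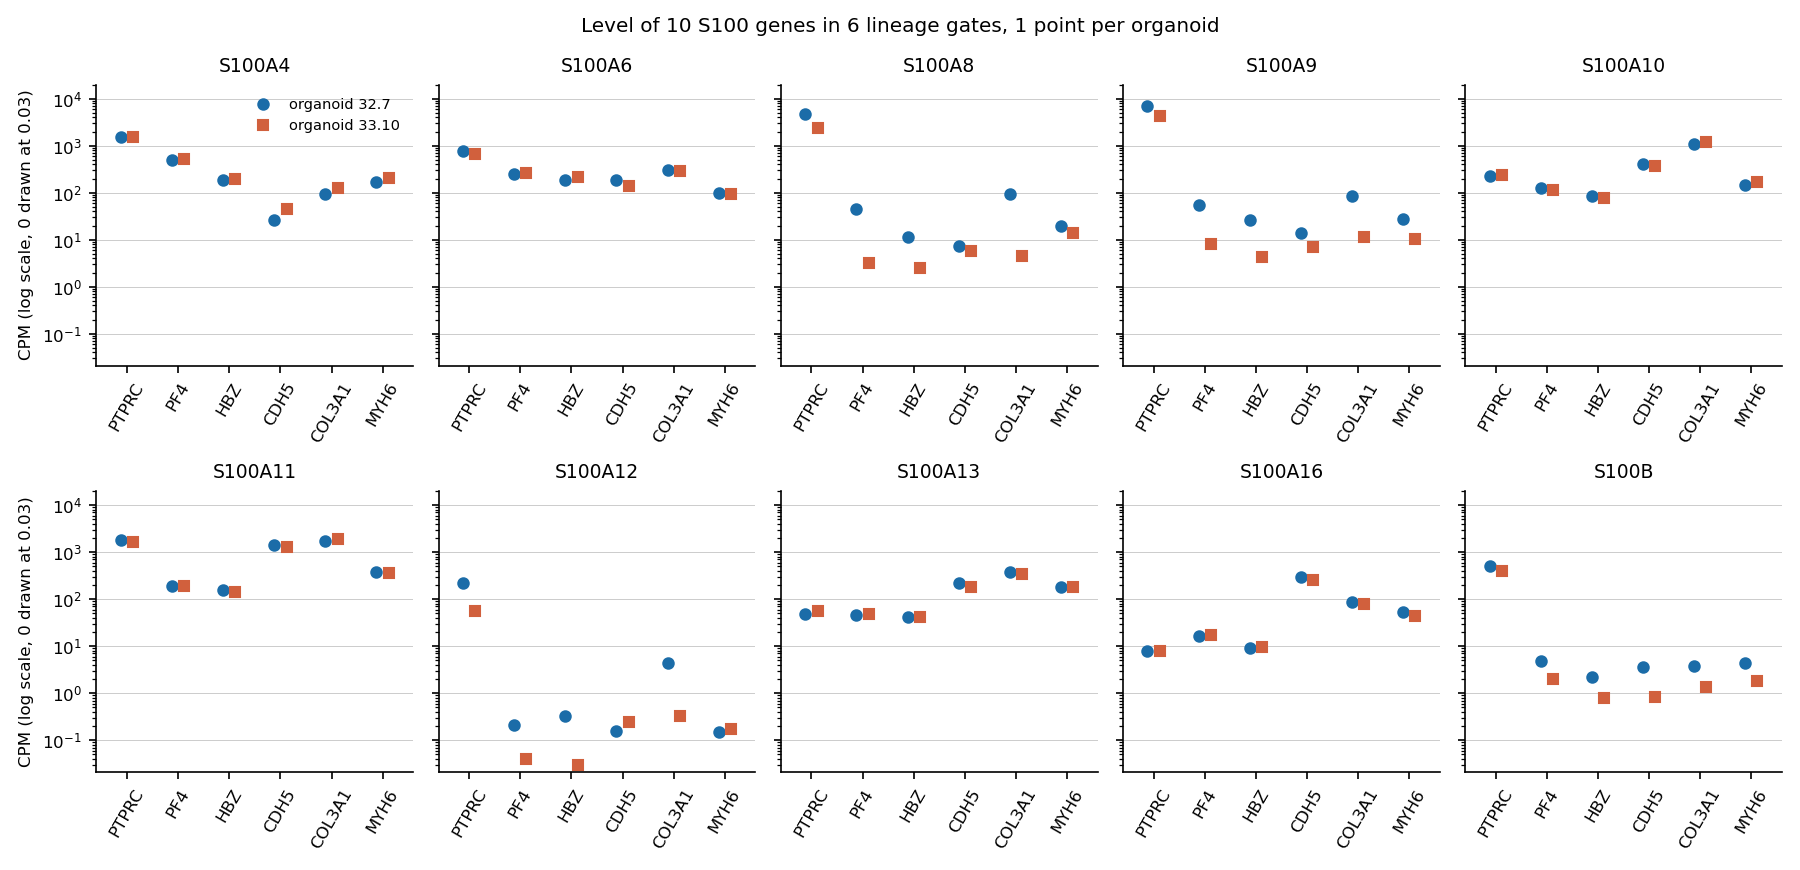
Level of each of the 10 genes (CPM of summed UMIs, log axis, with 0 drawn at 0.03) in 6 lineage gates, with 1 circle for organoid 32.7 and 1 square for organoid 33.10. *S100A8*, *S100A9*, *S100A12* and *S100B* stand far above the rest in the PTPRC gate (for *S100A9* 6865 and 4279 CPM), *S100A10* is highest in the COL3A1 gate (1068 and 1189 CPM) and *S100A16* in the CDH5 gate (300 and 256 CPM).

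In some gates outside the PTPRC gate the *S100A8* level rested on few cells. In the COL3A1 gate of organoid 32.7, 10 of 2659 cells with at least 20 *S100A8* UMIs each held 93.0% of the gate's *S100A8* UMIs, and without them the level fell from 94.2 to 6.61 CPM. Of these 10 cells, 9 also had a UMI of the leukocyte gene *TYROBP*, against 12.4% of the gate's other cells. In the PF4 gate of the same organoid 6 cells held 67.2%, leaving 15.2 CPM. In organoid 33.10, 3 cells held 71.3% in the COL3A1 gate and 2 cells held 74.1% in the CDH5 gate, while 2 cells held 40.0% in the MYH6 gate, where 8.51 CPM remained. No cell held 20 or more *S100A8* UMIs in the HBZ gate of either organoid or the PF4 gate of organoid 33.10, and 1 cell each held 15.7% and 12.4% in the CDH5 and MYH6 gates of organoid 32.7. Droplets that hold a leukocyte beside another cell were not told apart here from cells that carry both kinds of transcript.

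Counted by cells, the same contrast appeared with depth made equal. Each cell was thinned to 3000 UMIs, which left out shallower cells (29 and 21 in the PTPRC gate), and a cell counted as positive with 1 UMI. *S100A9* was found in 73.5% of PTPRC-gated cells of organoid 32.7 (626 of 852, exact 95% interval 70.4 to 76.4%) and 66.0% in organoid 33.10 (272 of 412, 61.2 to 70.6%). In the HBZ gate, whose cells are not expected to make calgranulins, it was found in 7.52% and 1.39%, and *S100A8* in 5.01% and 1.09%. Shares in the PF4, CDH5, MYH6 and COL3A1 gates ran from 0.56 to 7.34% for both genes. They lay at or below those of the HBZ gate of the same organoid except for *S100A8* in the MYH6 gate (6.04% and 2.17%) and in the PF4 gate of organoid 32.7 (5.68%), where the intervals overlapped with those of the HBZ gate. The part of free RNA in these shares was not tested. The intervals cover counting error only.

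*S100A8* and *S100A9* were found in the same cells. In the PTPRC gate 499 of 852 and 199 of 412 thinned cells held UMIs of both, 127 and 73 held only *S100A9*, and 18 and 1 held only *S100A8*. All 108 and 35 cells with *S100A12* held both partners as well. In the other gates of the tests, where few cells held either gene, detection of 1 alone was common. In the MYH6 gate 45 and 27 cells held only *S100A8*, 45 and 10 only *S100A9*, and 24 and 2 held both. These numbers were 34 and 11, 100 and 22, and 10 and 4 in the CDH5 gate. They were 49 and 9, 66 and 26, and 20 and 4 in the COL3A1 gate. The HBZ gate had 15 and 17, 32 and 22, and 19 and 1, and the PF4 gate 19 and 13, 31 and 23, and 22 and 2. Over all cells, 68.3% and 71.6% of *S100A8* UMIs and 70.7% and 71.0% of *S100A9* UMIs fell into the PTPRC gate, which took 8.70% and 3.64% of all UMIs. The cells in several gates, left out of the sums, held a further 19.3% and 19.9% of *S100A8* UMIs at 20.8% and 22.9% of all UMIs.

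**Figure D2:**
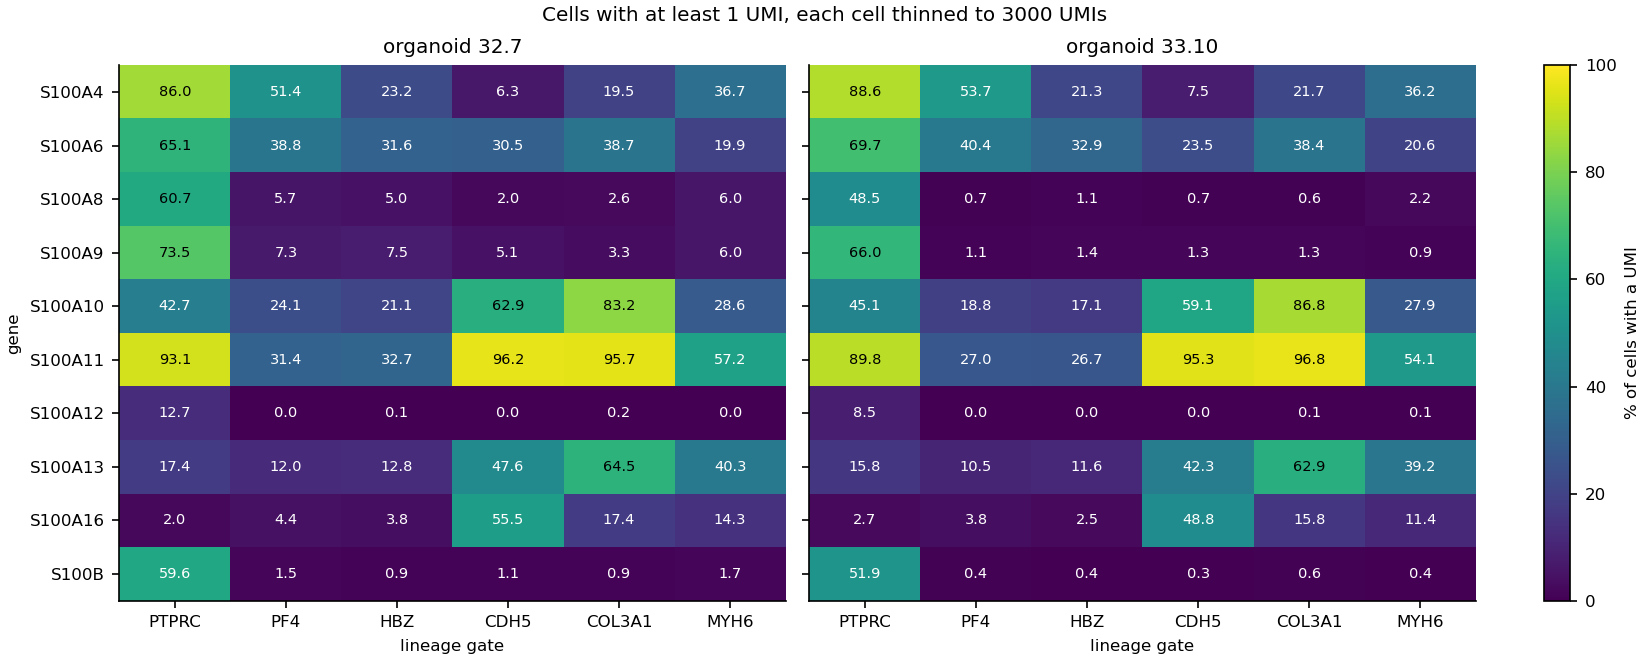
Percentage of cells with at least 1 UMI of each gene (rows) in each lineage gate (columns), each cell thinned to 3000 UMIs, for organoid 32.7 (left) and 33.10 (right). *S100A11* is found in over 89% of cells of the PTPRC, CDH5 and COL3A1 gates, whereas *S100A8*, *S100A9*, *S100A12* and *S100B* stay at 7.52% or less in the other 5 gates.

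Within the PTPRC gate, calgranulin levels differed between cells with neutrophil-lineage transcripts and cells with macrophage transcripts. Cells with at least 3 UMIs of *MPO* (myeloperoxidase of neutrophil granules) and fewer than 3 of *C1QA* (complement C1q, made by macrophages) numbered 225 and 54. The converse gate held 368 and 175 cells, and 278 and 200 cells passed neither. The listed neutrophil-lineage genes (*ELANE*, *AZU1*, *PRTN3*, *CTSG*, *CEBPE*) summed to 2623 and 2565 CPM in the MPO gate against 14.8 and 17.8 CPM in the C1QA gate. The macrophage list summed to 66.0 and 114 CPM against 3654 and 2733 CPM. Thus both gates carried their own list. The lymphoid genes summed to 46.5 and 37.7 CPM over the whole PTPRC gate. They were at 79.1 and 55.4 CPM in the C1QA gate and 10.5 and 22.4 CPM in the MPO gate.

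Between these gates 3 of the 10 members were higher with *MPO* and 4 with *C1QA*, among 13912 genes of which 7.20% were called higher and 9.50% lower with *MPO*. *S100A8* was at 9426 and 8386 CPM in the MPO gate and 1868 and 1384 CPM in the C1QA gate, a log2 difference of 2.45 (SE 0.37, adjusted p = 0.0029). *S100A9* was at 12082 and 11306 against 4255 and 3872 CPM (1.53, SE 0.28, adjusted p = 0.0064). *S100A12* showed the widest gap, at 534 and 259 against 11.4 and 16.6 CPM (4.90, SE 0.77, adjusted p = 0.0035, and 3.99 without organoid 32.7 against 5.52 without organoid 33.10). For all 3, both organoids of the MPO gate lay above both of the C1QA gate. How many of all genes are so separated was not counted. *S100A8* UMIs came to 0.780 and 0.742 per *S100A9* UMI in the MPO gate and to 0.439 and 0.357 in the C1QA gate, so the 2 genes did not fall by the same factor.

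*S100A4*, *S100A10*, *S100A11* and *S100B* went the other way. *S100A4* was at 780 and 702 CPM in the MPO gate against 2230 and 2041 CPM in the C1QA gate (log2 difference -1.52, SE 0.14, adjusted p = 0.000236). *S100A11* was at 1119 and 1303 against 2584 and 2394 CPM (-1.04, SE 0.16, adjusted p = 0.00282), and *S100B* at 265 and 280 against 857 and 664 CPM (-1.48, SE 0.22, adjusted p = 0.0029). *S100A10* was at 128 and 204 against 301 and 332 CPM (-0.96, SE 0.23, adjusted p = 0.0235). *S100A6* was at 622 and 685 against 805 and 778 CPM and did not pass (adjusted p = 0.42).

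**Figure D3:**
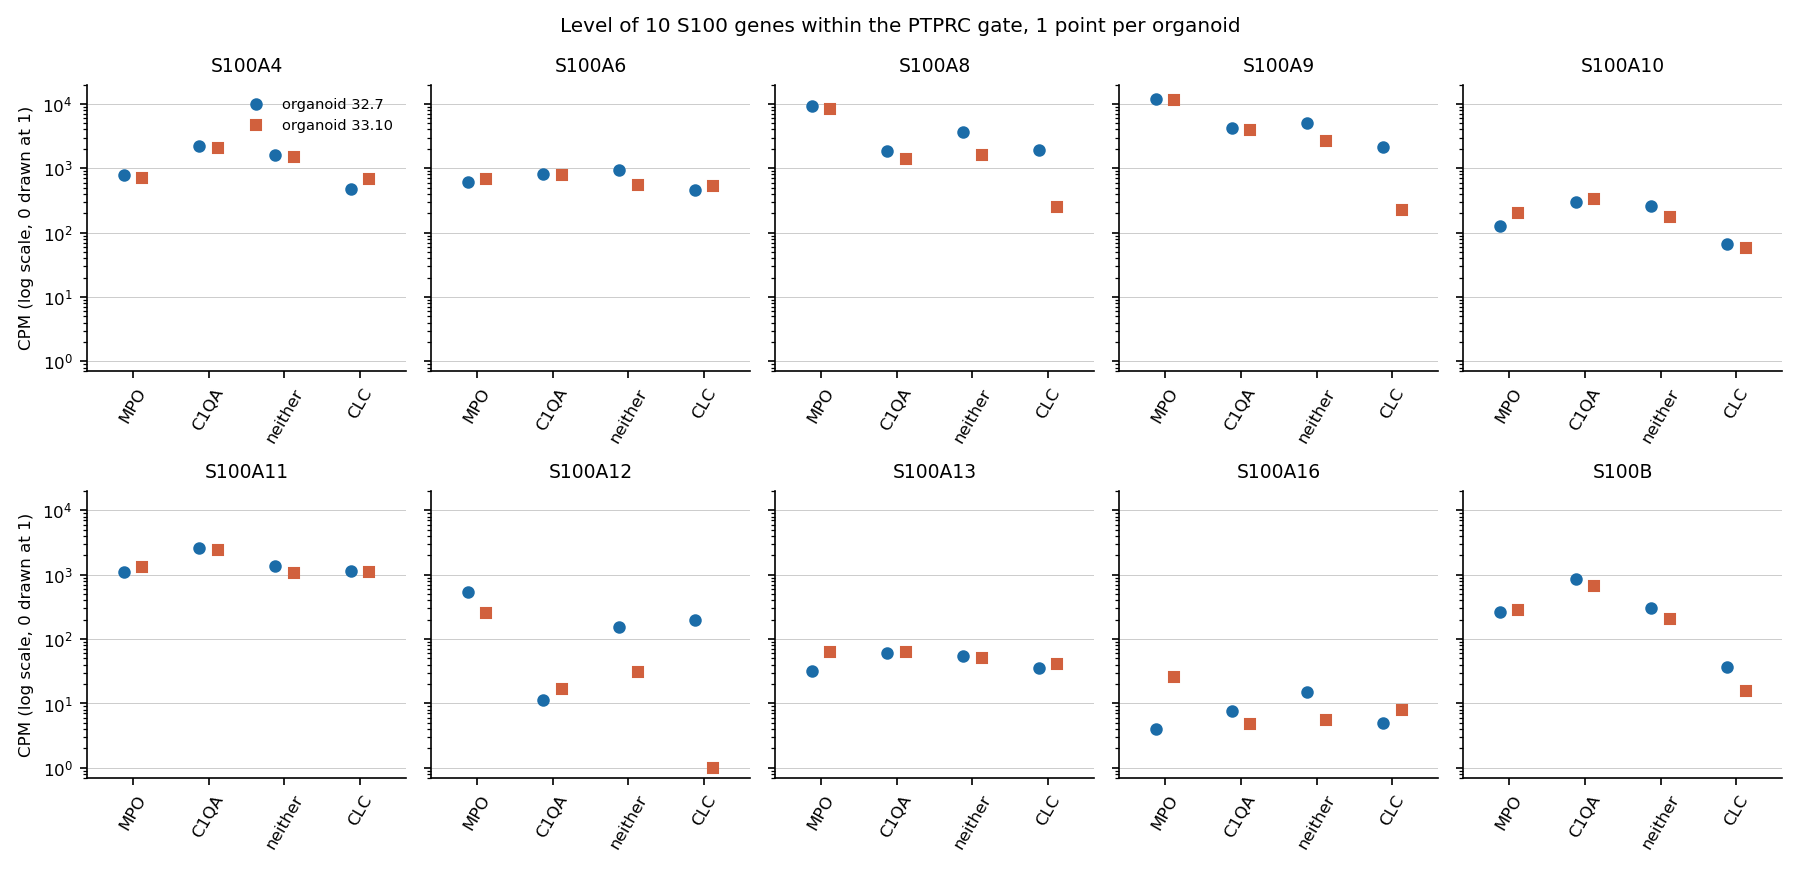
Level of each gene (CPM, log axis, with 0 drawn at 1) within the PTPRC gate, in cells with *MPO*, with *C1QA*, with neither and under 3 *CLC* UMIs, and with neither but at least 3 *CLC* UMIs (circles 32.7, squares 33.10). *S100A8*, *S100A9* and *S100A12* are highest with *MPO*, *S100A4*, *S100A11* and *S100B* with *C1QA*, and the *CLC* cells are lowest for *S100B* (37.0 and 15.6 CPM).

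A share of the cells with neither gene carried eosinophil-lineage transcripts. Cells with at least 3 UMIs of *CLC*, which codes for the Charcot-Leyden crystal protein of eosinophils and basophils, numbered 37 and 22 there, a split chosen after its values were seen and described without a test. The 3 listed eosinophil-lineage genes (*EPX*, *CLC*, *PRG2*) summed to 53243 and 53568 CPM in them. Since *CLC* is on this list and also chose the cells, the sum is in part fixed by the selection. The mast cell list (*TPSAB1*, *KIT*, *HDC*) was also highest in these cells, at 175 and 349 CPM, with UMIs of 2 and 1 of its 3 genes. In the whole PTPRC gate it was at 14.1 and 57.9 CPM. Their median cell held no UMI of *S100A8*, *S100A9*, *S100A10* or *S100B* in either organoid, and the 90th percentile of *S100A12* was 0. *S100A8* reached 1903 and 246 CPM in their sum, which the highest cells carried, since the 90th percentile was 5.81 and 6.47 UMIs per 10000 UMIs of the cell. *S100A4* (481 and 673 CPM) and *S100A11* (1139 and 1103 CPM) were present. *CLC* itself was at 263 and 6.88 CPM in the MPO gate and 3.04 and 263 CPM in the C1QA gate. All 3 listed eosinophil-lineage genes summed to 1647 and 137 CPM in the MPO gate and 10.1 and 799 CPM in the C1QA gate. Eosinophil-lineage RNA was thus spread unequally over these gates. Without any cell holding 3 *CLC* UMIs, added after seeing the data, the same 7 members passed with the same signs. That filter used *CLC* alone and not *EPX* or *PRG2*.

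Calgranulin levels also varied widely from cell to cell within each of these gates. In the MPO gate of organoid 32.7 the 10th, 50th and 90th percentiles of *S100A8* were 0, 27.8 and 509 UMIs per 10000 of the cell, and in organoid 33.10 they were 0, 33.3 and 286. In the C1QA gate the medians were 8.30 and 4.13 and the 90th percentiles 71.5 and 40.3. *S100A9* had medians of 40.5 and 61.7 in the MPO gate and 30.1 and 30.4 in the C1QA gate, much closer to each other than the sums. *S100A9* was found in 72.4% and 83.3% of thinned cells of the MPO gate and in 84.6% and 86.0% of the C1QA gate, so the gate with the higher sum did not have the larger share of positive cells, although the exact intervals overlapped in organoid 33.10. *S100A11*, by comparison, spanned 3.87 to 24.6 UMIs per 10000 between the 10th and 90th percentiles in the MPO gate of organoid 32.7.

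**Figure D4:**
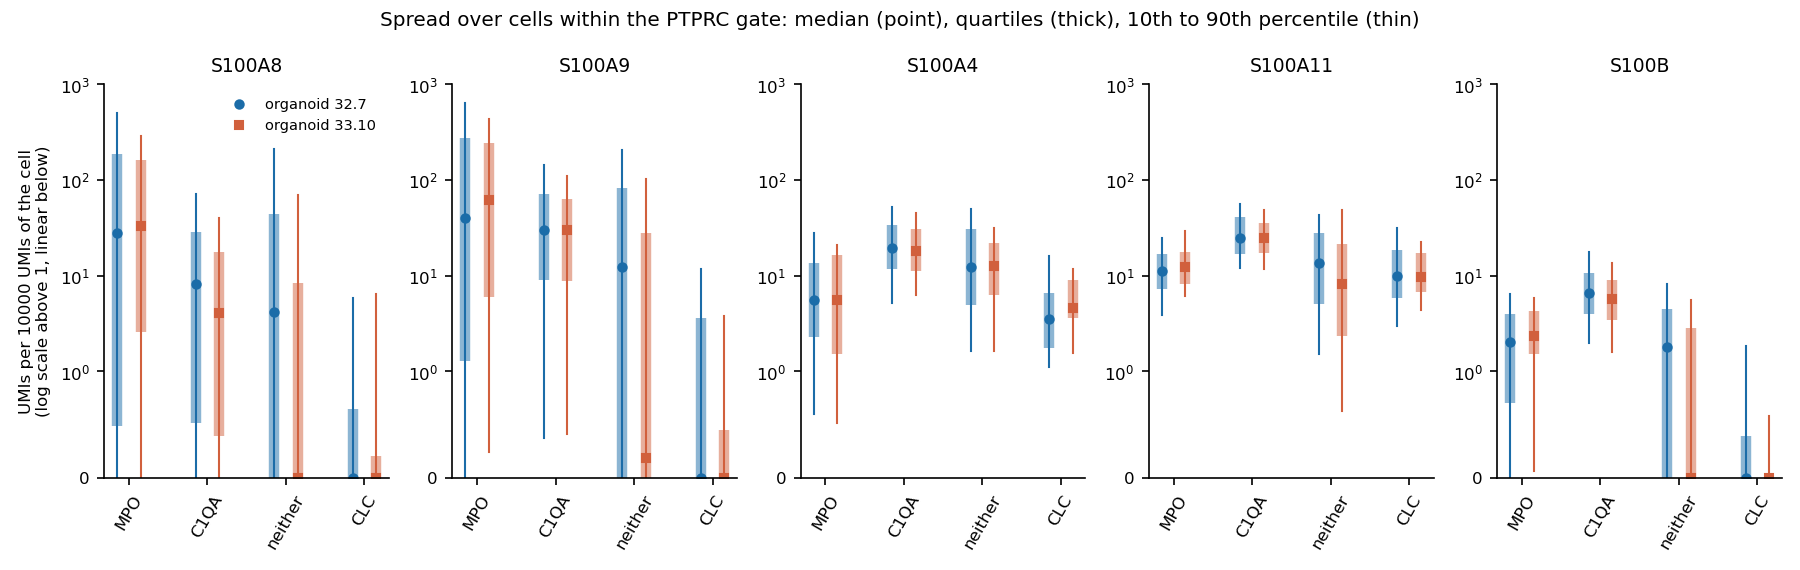
Spread over cells of 5 genes within the PTPRC gate, in UMIs per 10000 UMIs of the cell (log axis above 1, linear below), with the median (point), quartiles (thick line) and 10th to 90th percentiles (thin line) for organoid 32.7 (circle) and 33.10 (square). *S100A8* and *S100A9* run from 0 to a 90th percentile of 509 and 636 (organoid 32.7) in the *MPO* cells, where *S100A4* and *S100A11* hold a narrower range.

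Cycling split the PTPRC gate too. In cells with at least 2 UMIs of *TOP2A*, a topoisomerase of dividing cells, *S100A4* was at 1156 and 1361 CPM against 2395 and 2223 CPM in cells with none, *S100A6* at 433 and 554 against 1399 and 989 CPM, *S100A10* at 128 and 189 against 409 and 366 CPM, and *S100A9* at 5217 and 3486 against 9773 and 6641 CPM. All 4 were lower with *TOP2A* in both organoids, and the direction was not particular to them. *S100A8* was at 3629 and 1955 CPM with *TOP2A* against 6487 and 3685 CPM, and *S100A11* at 1313 and 1364 against 2714 and 2368 CPM. *S100A12* and *S100A13* were lower as well in both organoids. The cells with *TOP2A* were deeper, with medians of 25282 and 24455 UMIs against 10292 and 10882. This split was chosen after seeing the data and was not tested, and it did not lower *S100A4* in every lineage. In the HBZ gate *S100A4* was at 205 and 246 CPM with *TOP2A* against 158 and 147 CPM without, and in the PF4 gate at 563 and 546 against 442 and 508 CPM.

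*S100A4* and *S100A6* were highest in the PTPRC gate. *S100A4*, whose protein binds non-muscle myosin, was at 1566 and 1558 CPM in the PTPRC gate, 487 and 518 CPM in the PF4 gate, 186 and 200 CPM in the HBZ gate, 172 and 202 CPM in the MYH6 gate, 94.1 and 123 CPM in the COL3A1 gate and 25.6 and 45.4 CPM in the CDH5 gate. The HBZ and MYH6 gates changed places between organoids, whereas every other step of this order held in both. *S100A4* was 5.69 higher on the log2 scale in the PTPRC than in the CDH5 gate (SE 0.24, adjusted p = 1.41e-08). It was lower in the HBZ than in the PF4 gate (-1.18, SE 0.20, adjusted p = 0.00055) and higher in the MYH6 than in the COL3A1 gate (0.80, SE 0.20, adjusted p = 0.00781). With 10% of each sum removed as free RNA the last 2 differences were -1.34 and 1.04, no smaller than before. Their adjusted p was then 0.351 and 0.496. That alternative subtracted RNA in the proportions of all kept cells of the organoid and set values below 0 to 0. All gates were then fitted together again, and why the p-values rose was not tested.

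*S100A6*, which codes for calcyclin, was at 764 and 666 CPM in the PTPRC gate and lowest in the MYH6 gate, at 96.6 and 96.1 CPM. The COL3A1 gate (304 and 296 CPM) came next to the PTPRC gate, followed by the PF4 gate (255 and 268 CPM), with the HBZ gate (185 and 216 CPM) and the CDH5 gate (186 and 136 CPM) not ordered alike in both organoids. By the mean of both organoids the highest gate exceeded the lowest 7.42-fold, a narrower range over lineages than that of *S100A4*. *S100A6* was higher in the PTPRC than in the CDH5 gate (2.37, SE 0.17, adjusted p = 6.06e-07) and lower in the MYH6 than in the COL3A1 gate (-1.64, SE 0.17, adjusted p = 2.13e-05).

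*S100A10* and *S100A11*, the annexin-binding members, were high in mesenchyme-gated cells. *S100A10* was at 1068 and 1189 CPM in the COL3A1 gate, 398 and 370 CPM in the CDH5 gate, 227 and 238 CPM in the PTPRC gate, 148 and 168 CPM in the MYH6 gate, 129 and 116 CPM in the PF4 gate and 84.1 and 77.1 CPM in the HBZ gate. Every step of this order held in both organoids. *S100A11* was at 1699 and 1869 CPM in the COL3A1 gate, 1789 and 1646 CPM in the PTPRC gate and 1438 and 1275 CPM in the CDH5 gate, then fell to 370 and 364 CPM in the MYH6 gate and to 154 and 140 CPM in the HBZ gate. The COL3A1 and PTPRC gates were not ordered alike in both organoids.

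Between the CDH5 and COL3A1 gates *S100A10* differed by -1.53 on the log2 scale (SE 0.12, adjusted p = 1.95e-06). *S100A11* differed there by -0.37 (SE 0.12, adjusted p = 0.0272), which no longer passed with the gate minimums halved, with the cells of several gates kept or with free RNA removed. In the MYH6 gate *S100A10* was 2.84 below the COL3A1 gate on the log2 scale (-2.84, SE 0.13, adjusted p = 6.08e-08) and *S100A11* 2.27 below it (-2.27, SE 0.13, adjusted p = 3.16e-07). In the PTPRC compared with the CDH5 gate *S100A10* was lower (-0.50, SE 0.12, adjusted p = 0.00445) and *S100A11* higher (0.56, SE 0.12, adjusted p = 0.00256), and they passed in 7 and 8 of 10 alternatives.

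Within the COL3A1 gate the annexin-binding members were divided by mesenchymal subtype, in a split chosen after seeing the data. Cells with at least 1 UMI of *TBX18*, a factor of epicardium and septum transversum, but under 3 of *LUM*, and cells with at least 3 UMIs of *LUM* (the matrix proteoglycan lumican) but no *TBX18* were set side by side. *S100A10* was at 1455 and 1419 CPM with *TBX18* and 1037 and 1184 CPM with *LUM*, whereas *S100A11* was at 1271 and 1478 CPM with *TBX18* and 1781 and 2276 CPM with *LUM*. The 2 genes thus ran in opposite directions in both organoids.

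*S100A13* and *S100A16* were genes of the non-blood lineages. *S100A13* was at 379 and 347 CPM in the COL3A1 gate, 223 and 184 CPM in the CDH5 gate, 181 and 184 CPM in the MYH6 gate and between 40.9 and 56.8 CPM in the 3 blood gates. *S100A16* was at 300 and 256 CPM in the CDH5 gate, 88.4 and 79.1 CPM in the COL3A1 gate, 54.3 and 42.8 CPM in the MYH6 gate, 16.6 and 17.4 CPM in the PF4 gate, 9.36 and 9.53 CPM in the HBZ gate and 7.97 and 8.08 CPM in the PTPRC gate. All steps of the *S100A16* order held in both organoids, and it was found in 55.5% and 48.8% of thinned CDH5-gated cells against 2.00% and 2.67% of PTPRC-gated cells. The latter shares lay below the 3.83% of the HBZ gate in organoid 32.7 and near its 2.48% in organoid 33.10.

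*S100A16* was 1.75 higher on the log2 scale in the CDH5 than in the COL3A1 gate (SE 0.14, adjusted p = 2.37e-06), the only member called higher in the CDH5 gate of the 6 that passed there. Among all genes 23.2% were called higher in the CDH5 gate and 27.7% higher in the COL3A1 gate, while 5 members were higher in the COL3A1 gate. *S100A13* differed there by -0.81 (SE 0.13, adjusted p = 0.00035), and by -0.57 with the cells of several gates kept (adjusted p = 0.063). Against the PTPRC gate, *S100A16* was higher in the CDH5 gate (fitted as -4.89 for PTPRC over CDH5, SE 0.17, adjusted p = 6.16e-09), and so was *S100A13* (-1.72, SE 0.13, adjusted p = 1.13e-06). In the comparison of the PTPRC with the PF4 gate *S100A13* did not pass (0.07, SE 0.13, adjusted p = 0.684).

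Among endothelial cells *S100A16* was higher in the venous-type group. Cells of the CDH5 gate with at least 2 UMIs of *NR2F2*, a factor of venous endothelium, and no *CXCR4* were at 468 and 407 CPM, and cells with at least 2 UMIs of *CXCR4*, high in arterial endothelium, and no *NR2F2* were at 240 and 193 CPM. By thinned cells, 73.5% and 64.2% of the *NR2F2* cells held *S100A16* against 49.9% and 41.2% of the *CXCR4* cells. The exact 95% intervals did not overlap in either organoid, but they cover counting error over cells and not the spread between organoids. *S100A11* leaned the other way, at 1167 and 1107 CPM with *NR2F2* and 1570 and 1358 CPM with *CXCR4*. *S100A10*, at 426 and 471 against 388 and 292 CPM, was higher with *NR2F2* in both organoids. This split was chosen after seeing the data and was not tested over organoids.

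*S100B* was a leukocyte gene in these organoids. It was at 516 and 389 CPM in the PTPRC gate and between 0.79 and 4.86 CPM in the other 5 gates. Those 5 had the same order in both organoids (PF4, MYH6, COL3A1, CDH5, HBZ), but the levels of neighbouring gates overlapped between organoids. In thinned cells it was found in 59.6% (508 of 852, exact 95% interval 56.2 to 62.9%) and 51.9% (214 of 412, 47.0 to 56.9%) of the PTPRC gate, against 0.88% and 0.36% of the HBZ gate. The difference to the CDH5 gate was 7.84 on the log2 scale (SE 0.73, adjusted p = 4.29e-06) and that to the PF4 gate 7.14 (SE 0.73, adjusted p = 1.36e-05). Without organoid 32.7 the former was 9.09. Within the PTPRC gate 80.2% and 76.6% of the cells with *C1QA* held *S100B*, against 46.2% and 48.1% of those with *MPO*. Where *S100B* was found, *S100A9* was found in 80.3% and 84.1% of cells, against 63.4% and 46.5% of PTPRC-gated cells without *S100B*. Among the cells with *C1QA* alone these shares were 84.9% and 85.5% with *S100B*, against 83.3% and 87.5% without, so the difference over the whole gate was not seen there. It was seen in cells with neither *MPO* nor *C1QA* and few *CLC* UMIs, at 72.7% and 74.5% with *S100B* against 52.5% and 30.9% without. In the MPO gate the share was also higher with *S100B* in both organoids, by less in organoid 32.7.

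**Figure D5:**
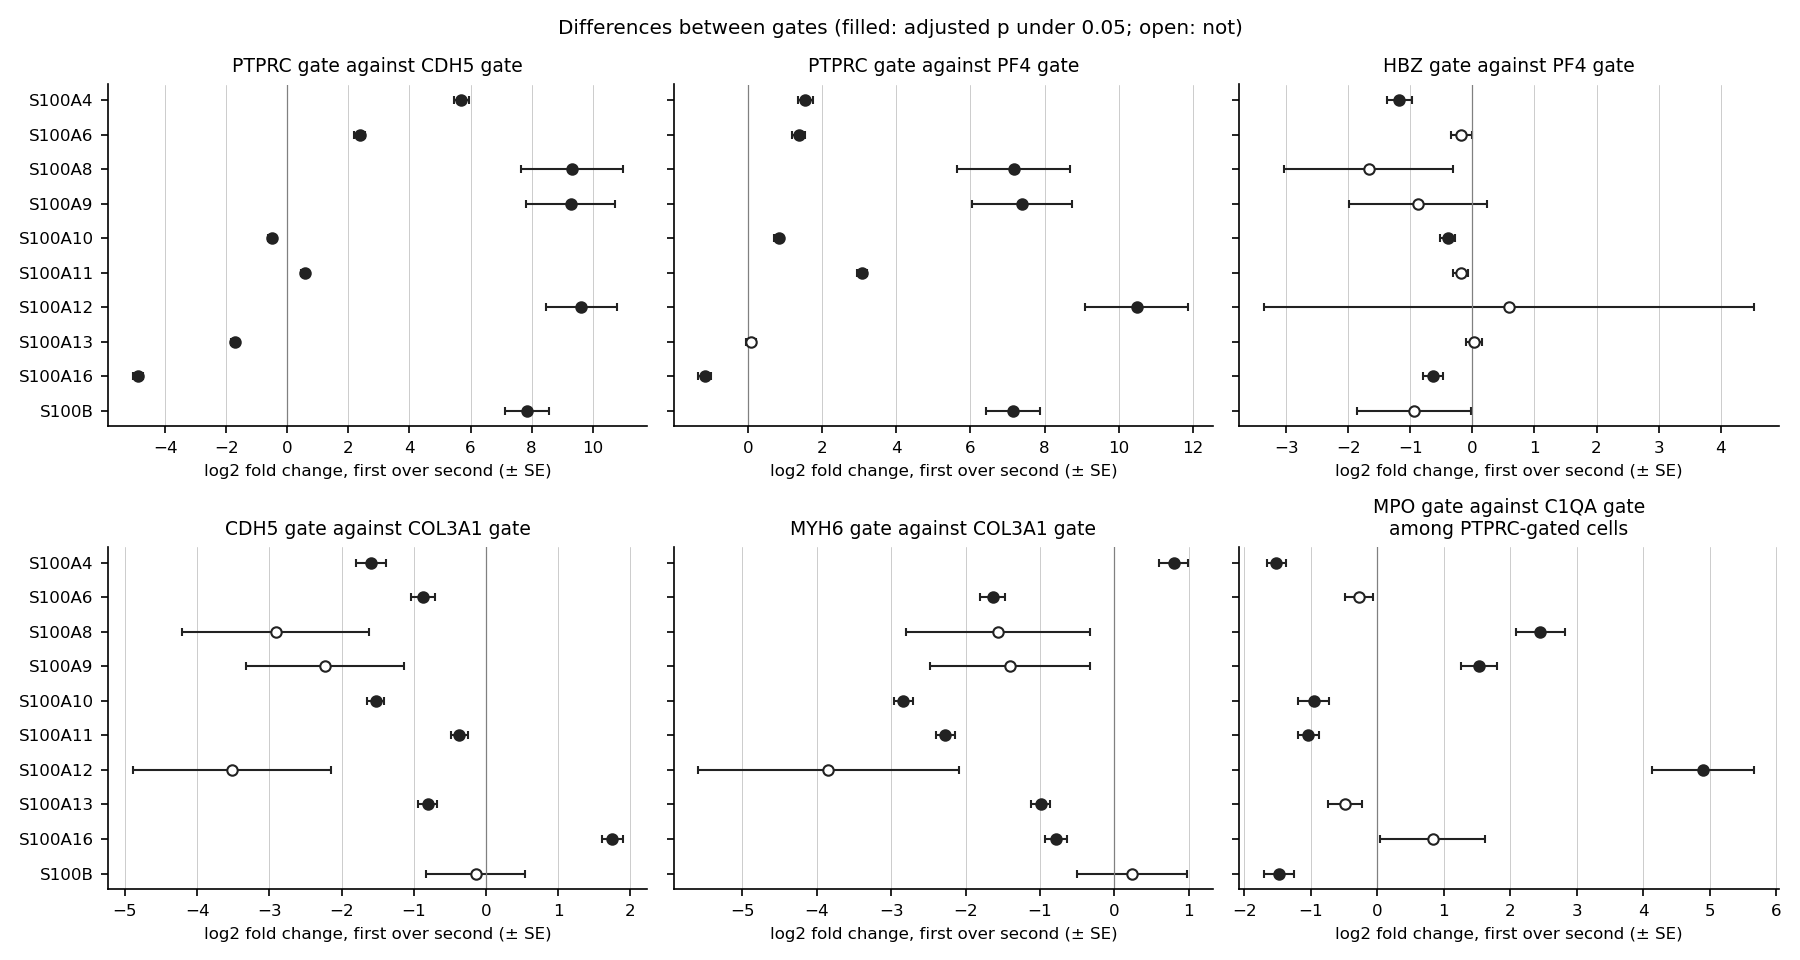
Log2 fold change of each gene between gates, first over second named gate, from the edgeR fits on summed counts (n = 2 organoids). Bars show the SE, which was derived from each fold change and its F value. Symbols are filled where the adjusted p was under 0.05 and open where it was not. *S100A8*, *S100A9*, *S100A12* and *S100B* carry the largest differences of the PTPRC gate, *S100A16* the largest in the opposite direction (-4.89 against the CDH5 gate), and values of *S100A12* against gates with few UMIs depend on the prior count of the fit.

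Between the HBZ and PF4 gates, lineages that share a progenitor, 3 of the 10 members passed. The 3 that passed were higher in the PF4 gate: *S100A4* (above), *S100A16* (-0.64, SE 0.16, adjusted p = 0.00716) and *S100A10* (-0.40, SE 0.12, adjusted p = 0.019). Among all genes 20.9% were called higher in the HBZ gate and 25.5% higher in the PF4 gate, and the median of all genes was -0.11. With another scaling, the relative log expression method, that median was -0.02 and *S100A10* no longer passed (adjusted p = 0.064). *S100A10* also lost its call with the cells of several gates kept or cells over 40000 UMIs left out (adjusted p = 0.433 and 0.0812), and *S100A16* with the gate minimums doubled or the cells of several gates kept (adjusted p = 0.0777 and 0.324). *S100A8* (-1.67, SE 1.36, adjusted p = 0.356), *S100A9* (-0.87, SE 1.11, adjusted p = 0.566) and *S100B* (-0.94, SE 0.91, adjusted p = 0.444) did not pass here. Their SEs are too wide to call them alike in both gates. *S100A12* had 4 and 0 UMIs in the HBZ gate and 2 and 1 in the PF4 gate, too few to compare.

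Between the MYH6 and COL3A1 gates 6 members passed, *S100A4* higher in the MYH6 gate and 5 (*S100A6*, *S100A10*, *S100A11*, *S100A13*, *S100A16*) higher in the COL3A1 gate. Among all genes 17.8% were called higher in the MYH6 gate and 23.1% higher in the COL3A1 gate. With the cells of several gates kept, *S100A4* (0.46, adjusted p = 0.0518), *S100A13* (-0.65, adjusted p = 0.0635) and *S100A16* (-0.34, adjusted p = 0.537) no longer passed there, and *S100A16* also lost its call with free RNA removed (-0.93, adjusted p = 0.0659). *S100A8*, *S100A9* and *S100A12* did not pass between the CDH5 or the MYH6 and the COL3A1 gate (adjusted p = 0.0518 to 0.344). With the organoid as a replicate block (paired sums), *S100A9* was called lower in the CDH5 gate (-1.78, adjusted p = 0.00987). *S100A12* was then called lower in the CDH5 gate and in the MYH6 gate, with 2 to 7 UMIs per sum there. It entered the fit through gates where it was higher, so these calls of *S100A12* lend no support and no fold is given. Without organoid 32.7 the difference of *S100A9* was -0.64. In these comparisons the COL3A1 gate of organoid 32.7 includes the 10 cells described above.

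The AFP gate is described only. In its 176 cells of organoid 32.7 *S100A10* was at 1108 CPM, *S100A11* at 1057 CPM, *S100A13* at 360 CPM and *S100A16* at 147 CPM, and in its 10 cells of organoid 33.10 these were at 948, 1488, 328 and 138 CPM. *S100A8* was at 72.3 CPM in organoid 32.7 and had no UMI in organoid 33.10, and *S100A9* was found in 29.3% of the thinned cells of organoid 32.7 (41 of 140). In that organoid the leukocyte list summed to 125 CPM and all 5 of its genes were found in the AFP gate, and the part of leukocyte RNA in these values was not tested.

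Of 10 genes of known binding partners, 5 were higher and 5 lower in the PTPRC than in the CDH5 gate, 6 higher and 1 lower in the PTPRC than in the PF4 gate, 4 higher and 3 lower in the CDH5 than in the COL3A1 gate, and 2 higher and 5 lower in the MYH6 than in the COL3A1 gate, with medians of -0.01, 0.50, 0.14 and -0.49 on the log2 scale. The corresponding member medians were 4.03, 2.31, -1.20 and -1.48, with *S100A12* included. With *S100A12* left out, the middle member was at 2.37, 1.55, -0.87 and -1.40. The medians of all genes were -0.03, -0.05, -0.06 and -0.07. The lists were not tested against each other. *ANXA2*, the annexin that binds S100A10, was at 507 and 392 CPM in the CDH5 gate and 243 and 198 CPM in the COL3A1 gate, a difference of 1.05 (SE 0.21, adjusted p = 0.00138), whereas *S100A10* ran in the other direction there. In the PTPRC gate *ANXA2* followed *S100A10*, with 381 and 422 CPM in the C1QA gate and 91.7 and 106 CPM in the MPO gate (-2.03, SE 0.15, adjusted p = 9.96e-05). Between the HBZ and PF4 gates *ANXA2* (0.89, adjusted p = 0.00547) and *S100A10* (-0.40) ran in opposite directions, and in the remaining comparisons they had the same sign. *ANXA1*, which binds S100A11, was higher in the COL3A1 than in the CDH5 gate (-1.43 for CDH5 over COL3A1, SE 0.20, adjusted p = 0.000119). So was *S100A11*, though not in every alternative. Between the MPO and C1QA gates *ANXA1* did not pass (0.29, adjusted p = 0.249), whereas *S100A11* was lower with *MPO* (-1.04). In the remaining comparisons these 2 had the same sign. *FGF1* was low in every gate, with its highest level of 14.3 and 24.0 CPM in the MYH6 gate.

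Of 6 listed genes for receptors of extracellular S100 proteins, 4 (*TLR4*, its co-receptor *LY96*, *CD36* and *CD33*) were higher in the PTPRC than in the CDH5 gate, and *AGER* and *BSG* were lower, where 26.4% of all genes were called higher and 26.7% lower. The same 4 were higher in the PTPRC than in the PF4 gate, where *AGER* and *BSG* did not pass (adjusted p = 0.95 and 0.759). *TLR4* was at 38.9 and 32.8 CPM in the PTPRC gate and 11.3 and 11.3 CPM in the CDH5 gate (1.90, SE 0.19, adjusted p = 6.83e-06). *CD36*, a scavenger receptor, was at 255 and 258 CPM in the PTPRC gate, and within it at 517 and 550 CPM in the C1QA gate against 28.2 and 6.88 CPM in the MPO gate (-4.61, SE 0.37, adjusted p = 0.000119). *LY96* showed the same direction, at 160 and 166 against 16.0 and 25.8 CPM (-3.09, SE 0.20, adjusted p = 5.88e-05). Of these 2 gates, the one with the higher calgranulin sums was therefore not the one with the higher *CD36* and *LY96* sums. Whether this holds from cell to cell was not tested. *CD33* was lower with *MPO* as well (-0.86, SE 0.18, adjusted p = 0.0126). *TLR4* (-0.63, adjusted p = 0.114), *AGER* (0.54, adjusted p = 0.616) and *BSG* (0.34, adjusted p = 0.134) did not pass between these gates. Among all genes tested there, 7.20% were called higher and 9.50% lower with *MPO*. *AGER* stayed between 2.48 and 7.69 CPM in all 6 gates.

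Other S100 genes reached 5 CPM in both organoids in few gates. *S100Z* was at 85.7 and 83.0 CPM in the PTPRC gate, 49.3 and 70.6 CPM in the MYH6 gate and 18.9 and 14.6 CPM in the CDH5 gate. *S100P* was at 81.8 and 51.0 CPM in the PTPRC gate and 3.02 CPM or less in the other 5 gates of the tests. *S100A14* was at 304 and 270 CPM in the AFP gate and below 1 CPM in the other gates, and *S100A1* was at 12.7 and 17.2 CPM in the AFP gate, there on 20 and 3 UMIs. *S100A3*, whose gene overlaps *S100A4*, was at 7.41 and 6.26 CPM in the CDH5 gate, where *S100A4* was lowest. The remaining 5 (*S100A2*, *S100A5*, *S100A7*, *S100A7A* and *S100G*) did not reach 5 CPM in any gate, and *S100A7L2* was not analysed here.

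Over the 12 sums of gate and organoid, the genes with the profile most like each member were named from 21656 genes by the correlation of log2(CPM + 5), as a description, since these sums share 2 libraries and few lineages. *S100B* was closest to *C1QA* (r = 0.998), *C1QC* (r = 0.998) and *C1QB* (r = 0.998), the C1q chains. *S100A8* was closest to *ZC3H12A* (r = 0.980), *MSRB1* (r = 0.973) and *RETN* (r = 0.971), and *S100A9* to *MSRB1* (r = 0.983), *RNASE2* (r = 0.982) and *ZC3H12A* (r = 0.979). *S100A12* was closest to *TMEM252-DT* (r = 0.993), *CD38* (r = 0.992) and *AC007881.2* (r = 0.992). For *S100A16* they were *PMEPA1* (r = 0.998), *TMSB15B-AS1* (r = 0.994) and *AC013287.1* (r = 0.992), and for *S100A13* *ZFP37* (r = 0.995), *PABPC5* (r = 0.993) and *PCDHA4* (r = 0.992). *S100A10* was closest to *SLC27A3* (r = 0.988), *RND3* (r = 0.983) and *ARHGEF19* (r = 0.979), and *S100A11* to *TMEM243* (r = 0.983), *GORAB* (r = 0.981) and *ENTPD7* (r = 0.980). *S100A4* was closest to *MAPKAPK3* (r = 0.979), *GK* (r = 0.968) and *NBR2* (r = 0.955), and *S100A6* to *SH3BP1* (r = 0.976), *NIBAN1* (r = 0.975) and *HSD17B11* (r = 0.964).

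Among the members themselves, *S100A8* and *S100A9* were the most alike pair over these sums (r = 0.993), and *S100A12* and *S100B* followed them with r of 0.952 to 0.975. *S100A10* and *S100A11* had an r of 0.844, *S100A13* and *S100A16* of 0.835, and *S100A4* and *S100A16* were opposed (r = -0.862).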

How the data were processed

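The 2 droplet libraries, from individual organoids of day 14, were read from deposited counts, which the authors obtained from Cell Ranger 7.0.0 (GRCh38, intronic reads included). These are raw UMIs without normalization, from before the study's removal of free RNA. Depth was 191152562 and 233818881 UMIs. The cell filter (at least 50 and at most 11000 genes, below 30% mitochondrial UMIs) left 16792 and 19893 barcodes. No doublet caller was run. Cells passing several gates (1548 and 1891) were left out, and cells over 40000 UMIs were left out in an alternative. The 6241 and 7288 cells that passed no gate (37.2% and 36.6% of the cells kept) entered no sum of the tests. They were shallow, with medians of 2949 and 4170 UMIs. Free RNA was not removed, except in an alternative.

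UMIs were summed per gate and organoid and tested with edgeR 4.0.16 in R 4.3.3 (TMM factors, glmQLFit, glmQLFTest, Benjamini-Hochberg over all genes tested, threshold 0.05). There were 12 sums of 6 gates in 1 fit and 6 sums of MPO, C1QA and neither in another, with gates under 20 cells left out and without a block. An SE is no output of this test, so each SE given here was derived from the log2 difference and its F value. The test was tested on simulated data. DESeq2 1.42.0 was an alternative. Cells were thinned to 3000 UMIs (alternative 1500) in Python 3.11.15 with numpy 2.4.6, with exact (Clopper-Pearson) intervals from scipy 1.17.1.

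Sums of 1 organoid come from the same organoid, and their deviations from the gate means correlated (median 0.340, lowest 0.223 over 15 pairs of gates), so the organoid number pairs the sums. The members, gene lists and gates were chosen with earlier results of these data known. Named genes are the 10 members, other S100 genes at 5 CPM or more in a gate of both organoids, 16 partner and receptor genes, and the 3 genes most correlated with each member.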

Additional observations from a re-analysis of the deposited data

How the results depend on the processing

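Of 60 member differences (10 genes, 6 comparisons), 41 passed, and 26 of these passed in every alternative with a test that could be run. These counts include the calls of *S100A12* between the PTPRC and the CDH5 or PF4 gate, which lend no support. Among all genes tested, 7.20 to 27.7% were called in each direction of a comparison, so many calls occur for any genes. Of 599 values under those alternatives, 567 kept direction and side of the threshold, 26 no longer passed and 6 newly passed, and no called difference changed sign. The count of genes called fell from 10045 to 6390 (HBZ against PF4) and from 8854 to 3803 (MYH6 against COL3A1) with the cells of several gates kept. There the members called, of 10, went from 3 to 1 and from 6 to 3. Between the MPO and C1QA gates it fell from 2323 to 1544 without cells over 40000 UMIs. Lost calls included *S100A10* and *S100A16* between the PTPRC and PF4 gates (0.16 and -0.64, adjusted p = 0.515 and 0.155, with the cells of several gates kept), *S100A4* there with free RNA removed (1.55 in both fits, adjusted p = 0.279), and *S100A9* and *S100A10* between the MPO and C1QA gates with minimums halved (1.56 and -0.91 against 1.53 and -0.96, adjusted p = 0.105 and 0.0952). The replicate block changed no call but the 3 given with the MYH6 and COL3A1 gates and moved no count of calls by over 1.5 times. With 1 organoid alone no test is possible, since no residual degrees of freedom remain, and 6 uncalled differences changed sign, among them *S100A8* of the CDH5 and MYH6 against the COL3A1 gate (0.42 and 1.72 without organoid 32.7). Thinning to 1500 UMIs moved 93 of 120 shares outside their intervals at 3000, since fewer UMIs find fewer cells. Detection of *S100A12*, *S100A16* in leukocytes and *S100B* outside them is limited by depth.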
